A study of Drosophila melanogaster with 12 samples.

Results

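Embryos of Drosophila melanogaster that carried both Drp1SG and SOD2i, from here on the double genotype, were compared with embryos that carried Drp1SG alone. The comparison was chosen by genotype label and rests on 6 of the 12 libraries of the series, 3 replicates of each of the 2 genotypes. Both groups carry Drp1SG, so the labels leave SOD2i as the difference between them. The other 6 libraries, 3 Control and 3 SOD2i, share the estimate of the spread and give the effect of adding SOD2i to Control. The labels do not say what SG stands for, which line, driver or promoter was used, or what Control carries, and SOD2i is taken here to mean that Sod2 was targeted by RNA interference. Each library came from a pool of 70 to 100 whole embryos kept at 28 C, sorted by hand for equal numbers of cellularizing and gastrulating stages and drawn from several collections. Whether replicates came from separate crosses is not stated, so p-values measure the spread between these libraries. Eggs were collected for 1 h and aged for 1.5 to 2 h, or collected over 2.5 to 3 h without ageing where few were laid. Which genotype had which window is not given, so window, line background and genotype cannot be told apart.

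Drp1 is the dynamin-related GTPase that constricts and divides mitochondria. Sod2, a manganese enzyme in the mitochondrial matrix, turns the superoxide that leaks from the respiratory chain into hydrogen peroxide. The early fly embryo lives on maternal RNA and maternal mitochondria, then clears the maternal RNA, activates its own genome, builds cells around the cortical nuclei and folds its mesoderm inward at the ventral furrow.

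The 6 libraries held 66745289 to 91949037 reads in genes, and levels are given as CPM, read counts relative to the scaled size of each library. Across genes, replicates correlated at r = 0.9894 to 0.9943 in Drp1SG and 0.9905 to 0.9926 in the double genotype, and libraries of different genotype at 0.9771 to 0.9819. The first principal component of the 6 libraries held 57.1% of the variance and separated the genotypes. The second held 15.9% and set Drp1SG replicate 1 and double-genotype replicate 2 apart from the rest. The mesoderm factor genes twi (143 to 169 CPM) and sna (116 to 141 CPM) and the cellularization gene slam (778 to 1696 CPM), chosen after their values were seen, were present in all 6 libraries. Mitochondrially encoded transcripts took 5.94% to 7.02% of reads in Drp1SG and 6.83% to 9.32% in the double genotype.

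Sod2 (Dmel_CG8905) was measured at 53.5, 46.7 and 48.3 CPM in the Drp1SG libraries and at 2.51, 3.54 and 3.08 CPM in those of the double genotype. Every library of the double genotype thus held a small remainder of the transcript, 6.15% of the Drp1SG mean. The log2 fold change was -4.02 ± 0.18 (SE; edgeR quasi-likelihood test, adjusted p = 2.06e-07, n = 3 per group). Drp1 (Dmel_CG3210) was measured at 71.0, 104 and 77.1 CPM in Drp1SG and at 43.8, 42.9 and 44.2 CPM in the double genotype. All 3 Drp1SG libraries lay above the double genotype, and replicate 2 was the highest. Drp1 fell from 84.0 ± 17.5 to 43.6 ± 0.645 CPM (SD), a log2 fold change of -0.94 ± 0.14 (adjusted p = 0.00126). The 2 Drp1SG-carrying groups therefore differed in the level of Drp1 transcript as well as in Sod2. Drp1 also fell in SOD2i against Control (log2 fold change -0.71 ± 0.14, adjusted p = 0.00335). The difference between these 2 changes was not called (-0.24 ± 0.19, adjusted p = 0.467). Against Control, Drp1 was higher in Drp1SG (1.22 ± 0.14) and not called in the double genotype (0.28 ± 0.14, adjusted p = 0.248). The double genotype stood above SOD2i (0.98 ± 0.14, adjusted p = 0.000818). The counts do not separate a transgene transcript from the endogenous one.

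Of 9863 genes tested, 1072 were called at an adjusted p under 0.05, which is 10.9%. Of these, 498 (5.05%) were higher and 574 (5.82%) lower in the double genotype, and the median size of a called change was 0.791 log2 units. A change of at least 2-fold was called for 421 genes (4.27%), 226 higher and 195 lower. The 2 sets of 3 libraries did not overlap for 3859 genes (39.1%). Leaving out any 1 of the 6 libraries lowered the number of calls to between 571 (without double-genotype replicate 2) and 703 (without double-genotype replicate 3). Without both Drp1SG replicate 1 and double-genotype replicate 2 it was 355. The share called was 10.6% of tested genes on 2L, 12.8% on 2R, 9.77% on 3L, 10.8% on 3R, 10.7% on X and 5.38% on 4. On Y it was 9.09%, 4 of 44 tested genes, all higher, and the median log2 fold change of the 44 was 0.453. Of 17 tested genes of the mitochondrial genome 0 were called.

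The largest rise among named genes of at least 5 CPM was that of kek1 (Dmel_CG12283, 2L), a leucine-rich transmembrane inhibitor of the EGF receptor. It was measured at 0.701, 1.56 and 1.39 CPM in Drp1SG and at 81.7, 107 and 76.9 CPM in the double genotype, a log2 fold change of 6.17 ± 0.32 (adjusted p = 4.74e-07). The transcript was close to absent in every Drp1SG library and abundant in every library of the double genotype. Control libraries held 42.1 to 57.8 CPM and SOD2i libraries 248 to 435 CPM. Sema2b (Dmel_CG33960, 2R), a secreted semaphorin that guides axons, rose from 4.17, 4.66 and 5.12 CPM to 62.4, 71.7 and 73.4 CPM (log2 fold change 3.89 ± 0.15). SP2353 (Dmel_CG8403, 2R) stood at 0.888 ± 0.0768 CPM in Drp1SG and at 9.32 ± 1.14 CPM in the double genotype, higher by 3.39 ± 0.29 log2 units (adjusted p = 2.88e-05). DNaseII (Dmel_CG7780, 3R), a nuclease that digests DNA in lysosomes, went up from 18.8 ± 0.302 CPM to a mean of 112 ± 12.1 CPM (log2 fold change 2.57 ± 0.14, adjusted p = 1.08e-06). The voltage-gated sodium channel gene para (Dmel_CG9907, X) rose from 2.95 ± 0.867 to 12.98 ± 1.05 CPM and Pde8 (Dmel_CG45019, 2R), a cyclic nucleotide phosphodiesterase, from 18.7 ± 0.511 to 76.6 ± 9.11 CPM.

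Smaller rises of at least 2-fold were called for the homeobox gene NK7.1, the immunoglobulin-domain adhesion gene klg and the glutathione transferase gene GstE11. They were also called for the secreted heparin-binding factor gene miple1, the long noncoding RNA lncRNA:bxd of the bithorax complex and Hen1, the methyltransferase that protects small RNAs. Their log2 fold changes were 1.48 for NK7.1, 1.45 for klg, 1.42 for GstE11, 1.28 for miple1, 1.22 for lncRNA:bxd and 1.22 for Hen1. Hen1 was measured at 16.1, 17.2 and 17.0 CPM in Drp1SG and 36.3, 41.7 and 39.3 CPM in the double genotype. These 12 risen genes kept their calls without any 1 of the 6 libraries.

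**Figure D1:**
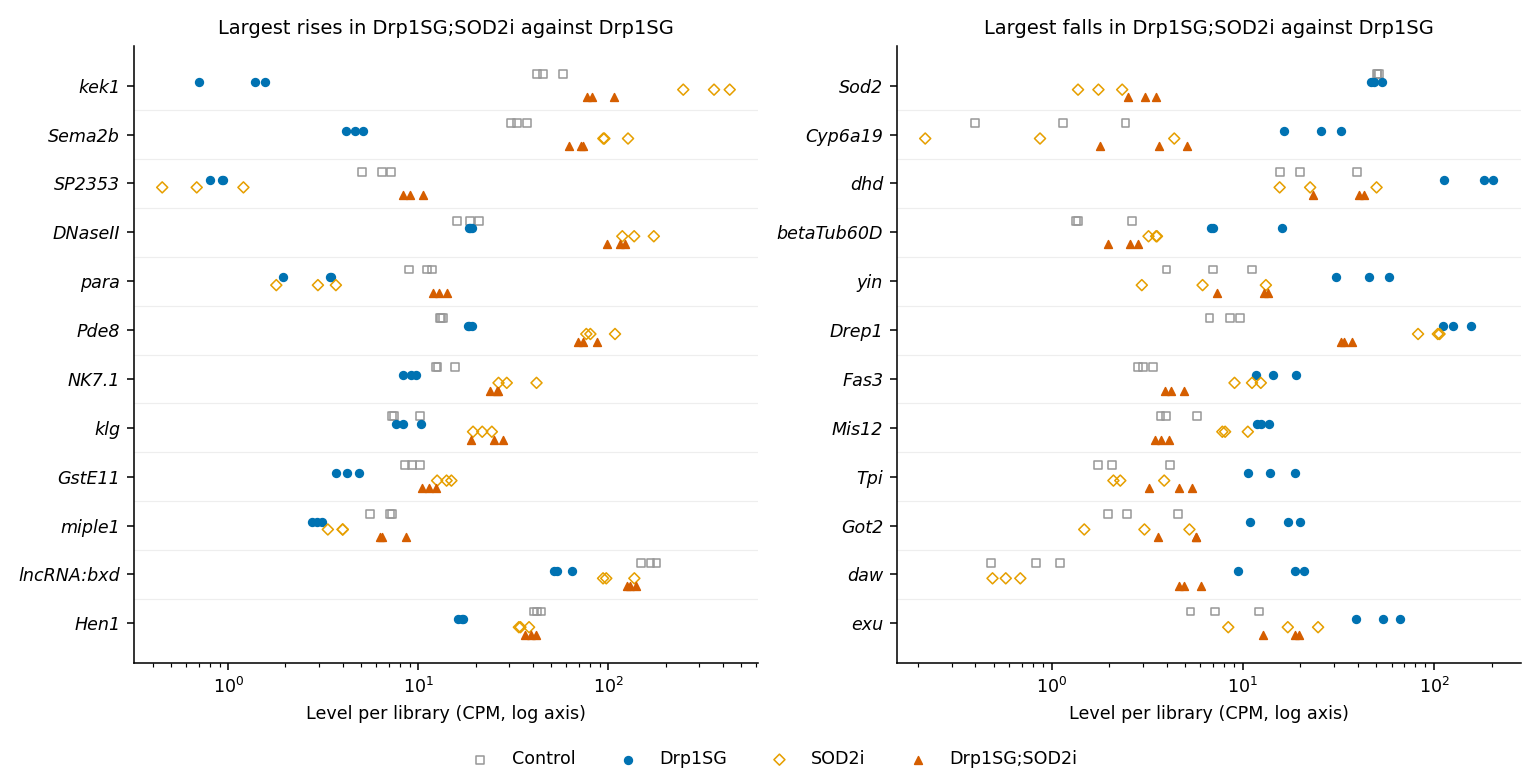
Level of 24 named genes in each of the 12 libraries, on a log axis in CPM; filled points are Drp1SG and Drp1SG;SOD2i, open points Control and SOD2i. For every gene the filled points of the 2 genotypes do not overlap, as the choice of genes required, and kek1 goes from a mean of 1.22 to 88.5 CPM.

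Among the named genes that fell besides Sod2 were regulators of DNA fragmentation, adhesion and signalling. Drep1 (Dmel_CG8357, 2R), of the family of DNA fragmentation factors, fell from 111, 126 and 155 CPM to 37.0, 32.8 and 33.7 CPM (-1.92 ± 0.16 in log2 units, adjusted p = 2.19e-05). Fas3 (Dmel_CG5803, 2L), a homophilic adhesion molecule of epithelial junctions, fell from 18.9, 11.8 and 14.3 CPM to 4.91, 3.91 and 4.22 CPM (log2 fold change -1.79 ± 0.19). Neither gene showed overlap between the groups, as the choice of genes required. Mis12 (Dmel_CG18156, 3L), a kinetochore subunit, fell from 12.7 ± 0.978 to 3.78 ± 0.326 CPM and the beta-tubulin gene betaTub60D from 9.94 ± 5.28 to 2.46 ± 0.436 CPM. The betaTub60D level in Drp1SG was uneven, 16.03 CPM in replicate 1 and 6.83 and 6.97 CPM in the others. The activin-like ligand gene daw (Dmel_CG16987, 2L) fell from 20.8, 18.8 and 9.47 CPM to 6.05, 4.95 and 4.65 CPM (log2 fold change -1.65 ± 0.30), and stood at 0.483 to 1.11 CPM in Control.

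The other 6 named falls included transcripts that mothers load into eggs. dhd (Dmel_CG4193, X), a germline thioredoxin, fell from 113, 203 and 183 CPM to 42.9, 40.4 and 23.3 CPM (-2.23 ± 0.46 in log2 units, adjusted p = 0.0097). exu, which localises bicoid RNA in the oocyte, fell from 53.2 ± 13.9 to 17.1 ± 3.79 CPM (log2 fold change -1.64). The peptide transporter gene yin, the aminotransferase gene Got2, the glycolytic gene Tpi and the cytochrome P450 gene Cyp6a19 had log2 fold changes of -1.99, -1.68, -1.70 and -2.82. In all 6 of these genes Drp1SG replicate 1 was the lowest of the 3 Drp1SG libraries, as it was for the mean of the maternal list given further on. dhd and exu are themselves members of that list, so that the covariate holds part of their own change. With that mean as a covariate the log2 fold changes were -1.60 for dhd, -0.96 for exu, -1.08 for yin and -0.92 for Got2, all 4 still called, and -1.61 for Cyp6a19, no longer called (adjusted p = 0.0695). The call of Cyp6a19 was also lost without any 1 of the 6 libraries (adjusted p of 0.074 to 0.157). The calls of yin, Got2 and exu were lost without any 1 library other than Drp1SG replicate 1, with adjusted p of up to 0.101, 0.107 and 0.0819.

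Called genes that had no read in any library of 1 group stood at trace level in the other. In the double genotype 9 called genes had no read, and in Drp1SG 10 called genes had none. With a floor of 3 counts per library, and named after their values were seen, CG3397 (2.39 ± 0.208 CPM in Drp1SG) was at least 55.1-fold lower in the double genotype. CG7309 was at least 33.8-fold lower and lncRNA:CR43807 at least 21.9-fold lower. In the other direction Ir92a (1.06, 1.52 and 2.76 CPM in the double genotype) was at least 42.2-fold higher, CG43187 at least 23.8-fold higher and CG34172 at least 21.1-fold higher. Of the 9 genes without a read in the double genotype, 8 had no read in Control either and 6 had a read in all 3 SOD2i libraries. Of the 10 without a read in Drp1SG, 6 had none in Control and 8 had a read in all 3 SOD2i libraries.

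Whether SOD2i acts alike in the 2 backgrounds was asked by setting the same addition to Control beside it, which uses 6 other libraries. SOD2i against Control called 2286 genes (23.2%), with 1019 higher (10.3%) and 1267 lower (12.8%). The 2 comparisons shared 492 called genes, 45.9% of the calls within Drp1SG and 21.5% of those against Control. Of the shared genes 224 changed in the same direction, 120 higher and 104 lower, and 268 in opposite directions. Of the latter 123 were higher within Drp1SG and lower against Control, and 145 the reverse. The difference between the 2 effects, tested as an interaction, was called for 1631 genes (16.5%), 907 positive (9.20%) and 724 negative (7.34%), among them 577 of the 1072 genes called within Drp1SG. Without double-genotype replicate 2 the shared genes numbered 321, and without Drp1SG replicate 2 those in the same direction numbered 145. Without SOD2i replicate 1 the larger part changed side, with 265 in the same direction and 256 in opposite directions.

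**Figure D2:**
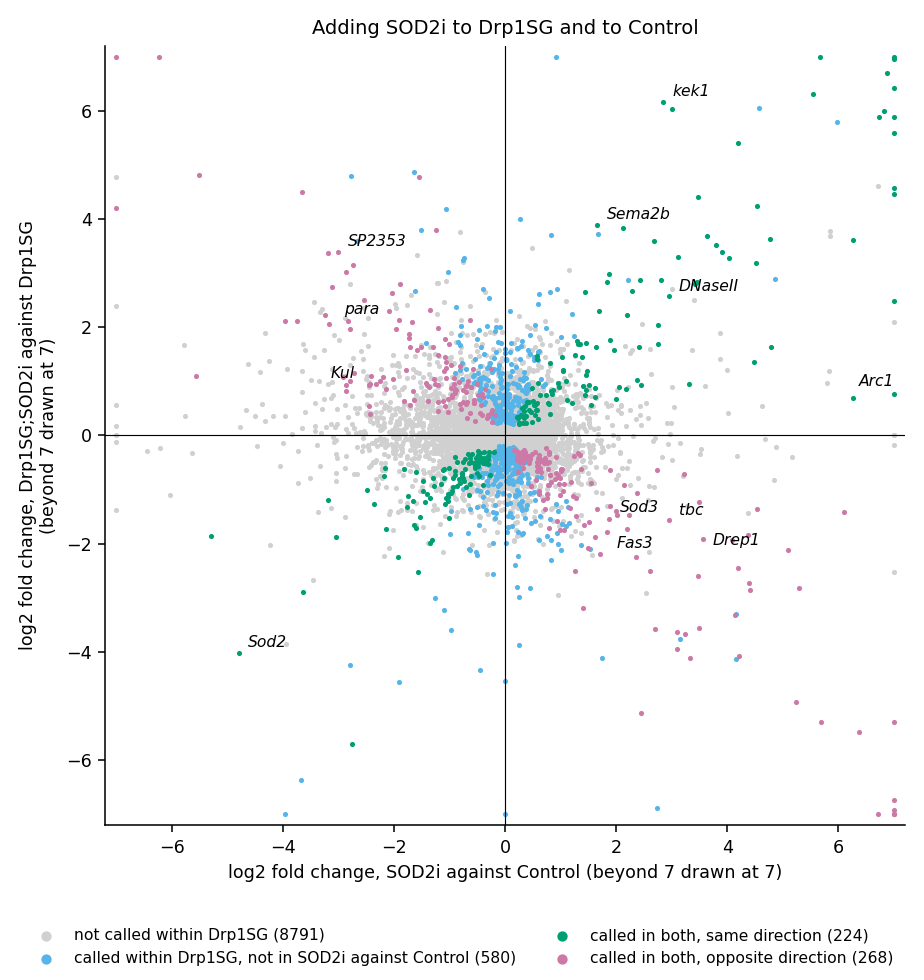
Log2 fold change of each of the 9863 tested genes for adding SOD2i to Drp1SG (vertical axis) against adding it to Control (horizontal axis); points are genes, coloured by whether each comparison called them, and values beyond 7 are drawn at 7. Genes called in both lie in all 4 quadrants, 224 with the same sign and 268 with opposite signs.

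A first pattern held genes that moved the same way in both backgrounds. DNaseII had log2 fold changes of 2.57 within Drp1SG and 2.95 ± 0.15 against Control, and the interaction was not called (-0.38 ± 0.19, adjusted p = 0.225). NK7.1 (1.48 and 1.26), klg (1.45 and 1.39) and GstO3 (1.76 and 1.89) were likewise called in both without a called interaction. Pde8 rose in both, less within Drp1SG (2.04) than against Control (2.74), an interaction of -0.71 ± 0.18 (adjusted p = 0.018). kek1 and Sema2b also rose in both, and in log2 units more within Drp1SG, from a lower start. Drp1SG and Control stood at 1.22 and 48.4 CPM for kek1 and at 4.65 and 33.6 CPM for Sema2b. The double genotype stayed below SOD2i, by -1.97 ± 0.25 log2 units for kek1 (adjusted p = 0.000413) and -0.61 ± 0.13 for Sema2b (adjusted p = 0.00784). The interactions were 3.33 ± 0.37 for kek1 and 2.25 ± 0.19 for Sema2b.

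A second pattern held genes that fell within Drp1SG and rose against Control. Drep1 was measured at 8.31 ± 1.51 CPM in Control, 98.0 ± 13.5 CPM in SOD2i, 131 ± 22.5 CPM in Drp1SG and 34.5 ± 2.24 CPM in the double genotype. Its interaction was -5.49 ± 0.23 (adjusted p = 8.47e-08). Fas3 (3.07, 10.9, 15.005 and 4.35 CPM in the same order), tbc (3.06, 23.8, 15.5 and 5.21 CPM) and the glycosyltransferase gene Ugt36E1 (5.02, 46.7, 22.0 and 13.4 CPM) had interactions of -3.61, -4.53 and -3.93. In all 4 genes both single genotypes stood above both Control and the double genotype. Their choice by a large negative interaction favoured this order. Arc1, whose protein assembles into virus-like capsids, differed in that it rose in both comparisons, by 0.69 ± 0.16 within Drp1SG and by 6.27 ± 0.21 against Control. Its call within Drp1SG was lost without Drp1SG replicates 1 or 3 or double-genotype replicate 2 (adjusted p of up to 0.0712).

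The third pattern was the reverse, with genes that rose within Drp1SG and fell against Control. SP2353 was measured at 6.24 ± 1.09 CPM in Control, 0.778 ± 0.385 CPM in SOD2i, 0.888 ± 0.0768 CPM in Drp1SG and 9.32 ± 1.14 CPM in the double genotype, an interaction of 6.40 ± 0.41 (adjusted p = 9.71e-07). para stood at 10.6, 2.81, 2.95 and 12.98 CPM in the same order, an interaction of 4.05. The metalloprotease gene Kul (25.2, 4.64, 5.34 and 10.4 CPM) and the EGF receptor inhibitor relative kek2 (3.18, 1.06, 0.817 and 2.45 CPM) had interactions of 3.40 and 3.17. Here both single genotypes stood below Control and the double genotype. This order is favoured where genes are chosen by a large positive interaction, as para and Kul were. The acetylcholine receptor subunit gene nAChRalpha5 and the proteasome ATPase relative Rpt3R, chosen alike, showed the same order, with interactions of 2.33 and 2.27. Their calls within Drp1SG (0.93 and 0.56) were lost without 3 and 2 of the libraries. These were Drp1SG replicates 1 and 2 and double-genotype replicate 3 for nAChRalpha5 (adjusted p of up to 0.0711), and Drp1SG replicate 3 and double-genotype replicate 2 for Rpt3R (up to 0.0567).

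Among antioxidant enzymes other than the targeted Sod2, 5 of 21 tested members fell and 1 rose, against 5.82% and 5.05% of all tested genes. Their median log2 fold change was -0.334, against 0.00257 for all genes. With Sod2 the list had 6 of 22 members lower and a median of -0.354. Sod3 (Dmel_CG9027, 2R), the secreted superoxide dismutase, fell from 122, 134 and 134 CPM to 58.2, 53.04 and 46.6 CPM, which is -1.31 ± 0.10 in log2 units (adjusted p = 1.24e-05). It rose in SOD2i against Control (1.88 ± 0.10) and in Drp1SG against Control (1.56 ± 0.10). The double genotype lay near the 44.0 ± 4.83 CPM of Control. The cytosolic dismutase gene Sod1 (134 and 128 CPM) and the catalase gene Cat (83.7 and 93.6 CPM) were not called (adjusted p = 0.73 and 0.222). The mitochondrial thioredoxin reductase gene Trxr-2 was at trace level and fell from 0.552 ± 0.0654 to 0.150 ± 0.0209 CPM. The peroxiredoxin gene Prx2540-2, one of several near-identical copies, fell from 38.7 ± 12.0 to 19.0 ± 1.91 CPM, and the peroxiredoxin gene Prx6005 rose from 18.2 ± 1.13 to 27.0 ± 2.45 CPM. The Prx6005 call was lost without double-genotype replicate 2 (adjusted p = 0.0519). The glutathione synthetase gene Gss1, at 1.39 and 0.774 CPM, lost its call without any 1 library (adjusted p of 0.0598 to 0.139). dhd, already given among the maternal falls, was the remaining lower member, and Prx2540-2, Prx6005 and Gss1 were named after their values were seen.

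Glutathione transferases, which conjugate glutathione to reactive compounds, had called members in both directions. Of 34 tested members 7 rose, beside 5.05% of all tested genes, and 2 fell, beside 5.82%, while the median was -0.0228. GstE11 rose from 3.69, 4.86 and 4.23 CPM to 11.4, 12.4 and 10.4 CPM (1.42 ± 0.13 in log2 units, adjusted p = 5.32e-05), without overlap as its choice required. GstD9 rose from 14.9 ± 0.213 to 26.7 ± 1.98 CPM (0.84 ± 0.11) and GstO3 from 0.336 ± 0.0619 to 1.14 ± 0.263 CPM. GstT4 fell from 11.9 ± 1.57 to 6.95 ± 0.151 CPM (-0.78 ± 0.13) and rose by 0.98 ± 0.13 in SOD2i against Control. The other 5 were named after their values were seen. GstE9 (0.85), GstD5 (0.72), GstE10 (2.48) and GstS1 (0.33) rose, and GstE8 (-0.50) fell. Of these GstS1 lost its call without any 1 library (adjusted p of up to 0.128). GstE8 and GstD5 lost theirs without 4 of the 6 libraries (up to 0.132 and 0.0609), and GstE10 without Drp1SG replicates 1 or 2 (up to 0.0597).

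**Figure D3:**
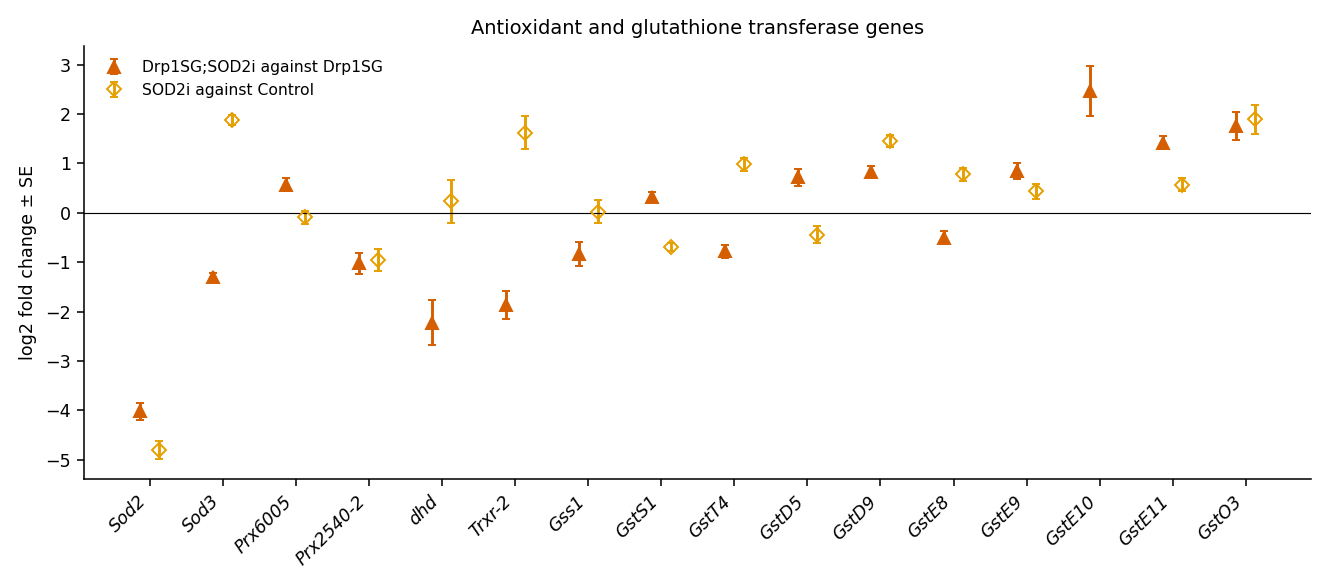
Log2 fold change with its standard error for the called antioxidant and glutathione transferase genes, within Drp1SG (triangles) and against Control (diamonds); GstE10 had no read in Control and has no diamond. Sod3, Trxr-2, GstT4 and GstE8, called in both, lie below 0 within Drp1SG and above 0 against Control, and Sod3 stands at -1.31 and 1.88.

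Of 15 genes of mitochondrial fission, fusion and mitophagy 3 were lower, beside 5.82% of all tested genes, and 0 higher. Without Drp1, after which the Drp1SG genotype is named, 2 of 14 were lower. The lower members were Drp1, the fusion GTPase gene Opa1 (-0.27) and the outer membrane fusion factor gene Miga (-0.41). The Opa1 call was lost without any 1 library (adjusted p of 0.0678 to 0.142), and that of Miga without replicates 2 or 3 of either genotype (up to 0.0813). Of 16 genes of the mitochondrial stress response 4 were lower, again beside 5.82% of all genes, and 0 higher, with a median of -0.244. crc, the fly ATF4, was at 331 ± 15.5 and 253 ± 9.89 CPM, against 155 ± 21.9 CPM in Control. The ATF4 target Thor, an inhibitor of cap-dependent translation, fell from 38.1 ± 14.0 to 19.9 ± 3.13 CPM, and the one-carbon enzyme gene Shmt from 12.7 ± 1.73 to 6.13 ± 0.151 CPM. Gadd45, a stress-induced gene at trace level, fell from 0.533 ± 0.174 to 0.0783 ± 0.0360 CPM. The crc call was lost without any 1 library (adjusted p of 0.0512 to 0.113), and that of Thor without replicate 1 of either genotype or double-genotype replicate 2 (up to 0.105).

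In glycolysis 2 of 12 genes were lower, Tpi and Pgk, and 0 higher, beside 5.82% and 5.05% of all tested genes. The median was -0.314. Pgk was measured at 50.4 ± 4.09 and 38.6 ± 2.35 CPM, and its call was lost without Drp1SG replicate 2 or any 1 double-genotype library (adjusted p of up to 0.112). Of 19 citrate cycle genes none was called by edgeR, and of 15 mitochondrially encoded genes none either, with medians of -0.0222 and 0.0627. Nuclear oxidative phosphorylation genes were called in 3 of 65 cases, 1 higher and 2 lower, among them the complex I gene ND-13B, which fell from 18.6 ± 0.872 to 13.03 ± 0.404 CPM. The other called members were the ATP synthase genes ATPsyngamma (-0.32) and ATPsynbetaL (1.07). Of 71 mitochondrial ribosomal protein genes mRpL16 (0.36), mRpS17 (0.33) and mRpS11 (0.27) were higher and mRpL20 (-0.52), mRpL54 (-0.33) and mRpL39 (-0.31) lower. Among 86 cytosolic ribosomal protein genes RpL28 was higher (0.27) and 0 lower. Both shares lay under the 10.9% of all genes. The ATPsyngamma call was lost without any 1 library (adjusted p of 0.0542 to 0.104), and those of ATPsynbetaL, RpL28 and Rpt2 without 5, 4 and 3 of them (up to 0.179, 0.0704 and 0.0578). Hr96, mRpL39 and mRpL54 lost their calls without any 1 library (up to 0.0822, 0.073 and 0.0922), mRpS17 and mRpS11 without 4 (up to 0.0982 and 0.0782) and mRpL20 without 3 (up to 0.0707). mRpS17 and mRpS11 were named after their values were seen. Of 31 proteasome genes Rpn2 (-0.33) and Rpt2 (-0.51) were lower, while upper-quartile scaling gave 2 higher and 2 lower. Of 15 genes of the Keap1-cnc and JNK pathway the nuclear receptor gene Hr96 was lower (-0.62).

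Of 28 tested maternal transcripts of the kind normally cleared at these stages, 6 were called lower, beside 5.82% of all tested genes, and 0 higher. The median log2 fold change of the list was -0.557. The mean log2 CPM of the list was 5.72, 6.05 and 6.06 in Drp1SG and 5.61, 5.27 and 5.29 in the double genotype. The groups did not overlap, though double-genotype replicate 1 lay close to Drp1SG replicate 1. The means differed by -0.553 (p = 0.1 in a two-sided exact permutation test, which cannot go lower with 3 libraries a side). Replicates of the other genotypes spread more widely, at 5.25, 5.25 and 4.41 in Control and 5.69, 4.43 and 5.21 in SOD2i. The SD was 0.487 in Control and 0.635 in SOD2i, beside 0.194 in Drp1SG and 0.191 in the double genotype. Besides dhd and exu, the chaperone transcript Hsp83 fell from 867 ± 72.3 to 513 ± 26.9 CPM (log2 fold change -0.76 ± 0.15) and png, a kinase that drives translation of maternal RNA, from 5.77 ± 0.731 to 2.44 ± 0.422 CPM. The other lower members, named after their values were seen, were alphaTub67C (37.5 and 13.2 CPM) and fs(1)K10 (119 and 92.7 CPM), whose calls were lost without any 1 library (adjusted p of up to 0.16). Of 17 germline genes 3 were lower and 0 higher, and spn-E, a helicase of the piRNA pathway, fell from 155 ± 8.51 to 74.9 ± 12.0 CPM. The others were AGO3, a piRNA-binding Argonaute (-0.30), and the germ plasm gene tud (-0.33), whose calls were lost without 4 and 5 of the libraries (adjusted p of up to 0.0875 and 0.151).

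Of 10 tested genes of the first zygotic wave 2 were called higher, beside 5.05% of all tested genes, and 0 lower. All 10 had a positive log2 fold change, with a median of 0.628. Z600, an inhibitor of mitosis, rose from 90.9, 91.9 and 109 CPM to 154, 204 and 148 CPM (log2 fold change 0.80 ± 0.15). tld, a protease that frees the BMP ligand Dpp, rose from 71.7, 73.0 and 80.7 CPM to 118, 119 and 110 CPM (0.62 ± 0.09, adjusted p = 0.00142). Neither showed overlap between the groups. The list mean was 5.85 to 6.33 in Drp1SG and 6.63 to 6.75 in the double genotype. A stage index subtracts the early zygotic mean from the joint mean of segment polarity and Hox genes. It was -1.14 ± 0.358 in Drp1SG and -1.93 ± 0.206 in the double genotype (difference -0.785, exact permutation p = 0.1). The index reuses the early zygotic genes given above and is no separate result for them. Segment polarity and Hox genes had smaller median log2 fold changes, -0.149 and -0.0807. Whether these stage-related levels carry other differences between the pools was not tested beyond the covariate fit.

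**Figure D4:**
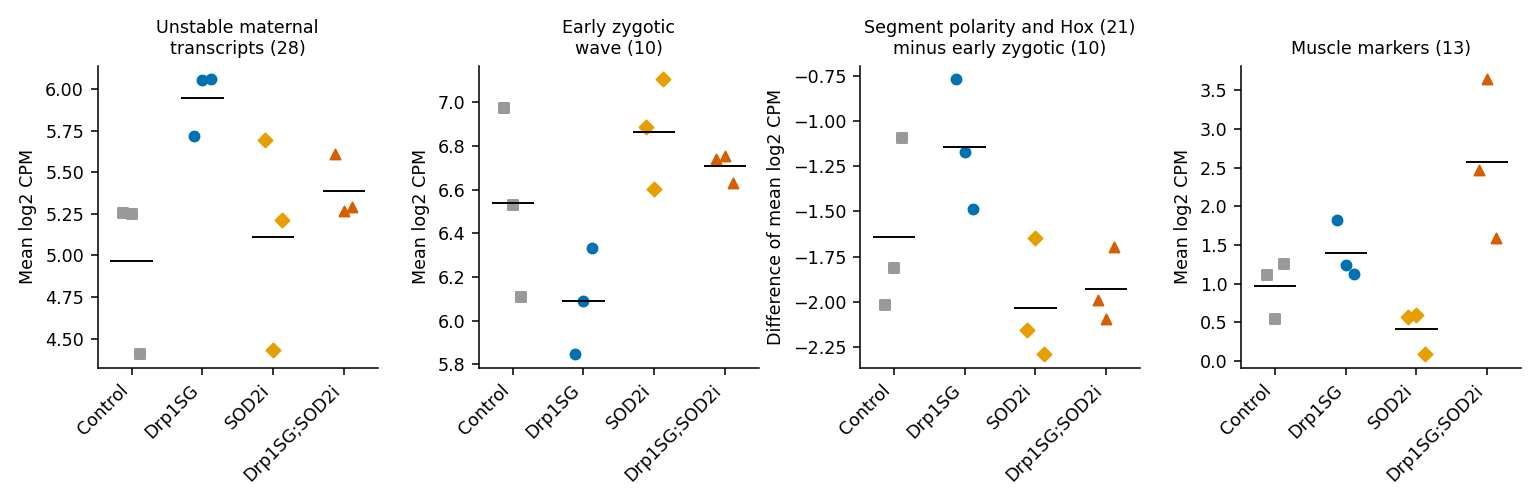
Mean log2 CPM per library of unstable maternal transcripts, early zygotic genes and muscle markers, and the difference that forms the stage index, for the 4 genotypes; points are libraries and lines group means. Maternal transcripts are lower in the double genotype (mean 5.39) than in Drp1SG (mean 5.94), and double-genotype replicate 2 has the highest muscle mean, 3.64.

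Of 10 pair-rule and 13 segment polarity genes none was called by edgeR, of 11 gap genes knrl was lower (-0.50), and of 8 Hox genes pb was lower (2.53 ± 0.115 and 1.07 ± 0.262 CPM). Over all tested genes 5.82% were lower. Of 23 genes of the dorsal ectoderm and BMP signalling 3 were higher, beside 5.05% of all tested genes, and 0 lower. The higher members were tld and the extracellular BMP modulators tsg and cv-2. tsg stood at 15.1 ± 2.81 and 26.5 ± 1.92 CPM and cv-2 at 93.1 ± 12.99 and 139 ± 2.03 CPM. The knrl call was lost without any 1 library (adjusted p of 0.0642 to 0.143). The tsg call was lost without any 1 library other than Drp1SG replicate 3 (adjusted p of up to 0.107), and that of cv-2 without Drp1SG replicate 3 (0.05).

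In the list of the ventral furrow and mesoderm, genes of gastrulation, 5 of 20 members were lower, beside 5.82% of all tested genes, and 0 higher, with a median of -0.144, and with upper-quartile scaling 2 were lower. RhoGEF2, which activates Rho1 for apical constriction, fell from 138, 129 and 129 CPM to 99.4, 83.7 and 95.9 CPM (-0.50 ± 0.09 in log2 units, adjusted p = 0.00406). NetA, a netrin, fell from 124 ± 3.26 to 91.2 ± 1.04 CPM. mthl1, the receptor for Fog in the mesoderm, was at 99.3 ± 4.47 and 80.6 ± 3.24 CPM, and the mesoderm gene Mes2 at 97.7 ± 7.27 and 77.0 ± 0.950 CPM. stumps, an adaptor of FGF receptor signalling named after its value was seen, was at 272 ± 28.0 and 205 ± 4.50 CPM. The calls of mthl1, Mes2 and stumps were lost without 2, 3 and 5 of the 6 libraries (adjusted p of up to 0.062, 0.0625 and 0.0911). For mthl1 these were Drp1SG replicate 1 and double-genotype replicate 3, for Mes2 Drp1SG replicates 1 and 2 and double-genotype replicate 2, and for stumps all but Drp1SG replicate 3. Of 22 genes of myosin II and contractility RhoGEF2 and the cofilin phosphatase gene ssh (-0.30) were lower, and of 17 cellularization genes RhoGEF2 and the kinesin gene Klp3A (-0.26). The ssh call was lost without any 1 library (adjusted p of 0.07 to 0.121).

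Among adhesion and polarity genes 3 of 24 were lower and 1 higher, beside 5.82% and 5.05% of all tested genes. The Par3 gene baz fell from 331, 315 and 328 CPM to 253, 232 and 248 CPM (-0.41 ± 0.06 in log2 units, adjusted p = 0.00166), with no overlap. vari, a scaffold of septate junctions, fell from 53.6 ± 3.32 to 29.2 ± 1.29 CPM (-0.88 ± 0.15), beside the fall of Fas3. All 3 rose in SOD2i against Control, by 0.61 for baz, 1.54 for vari and 1.83 for Fas3, and their interactions of -1.02, -2.42 and -3.61 were called. The claudin gene kune was at 31.9 ± 1.02 and 40.7 ± 2.07 CPM, a call lost without any 1 library other than double-genotype replicate 3 (adjusted p of up to 0.0828).

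**Figure D5:**
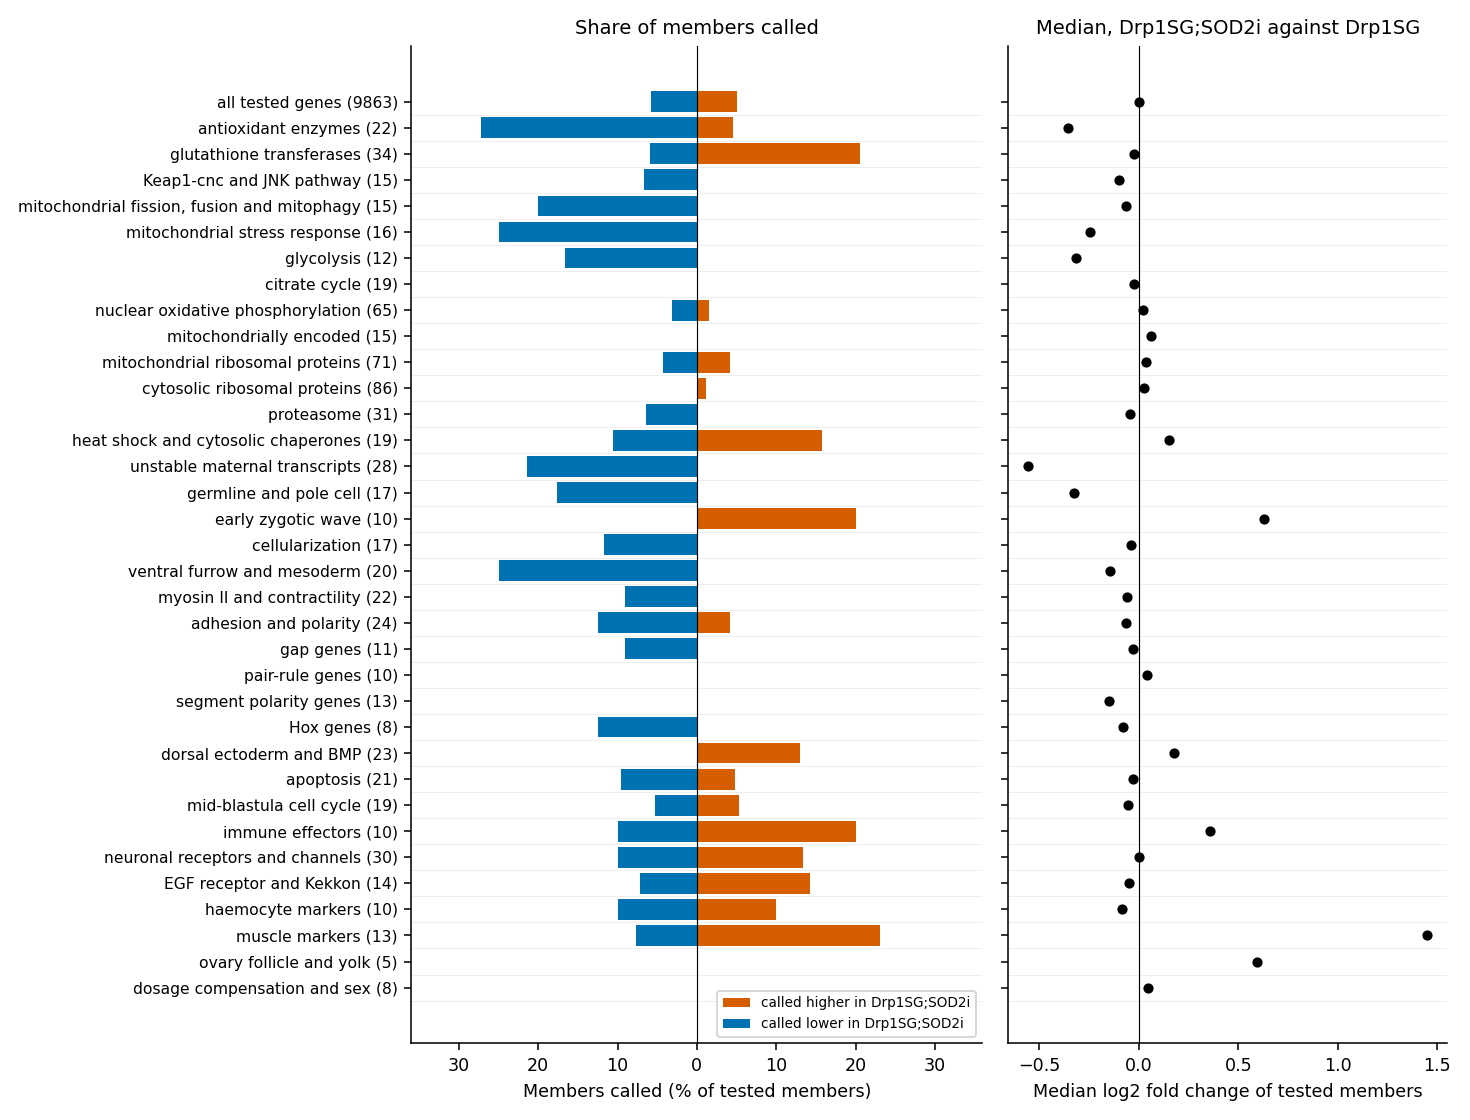
Share of tested members called higher (right) and lower (left) in the double genotype against Drp1SG for each gene list with at least 5 tested members, with the median log2 fold change of the list beside it; numbers of tested members stand in brackets and the top row holds all 9863 tested genes. Antioxidant enzymes (6 of 22 lower, the targeted Sod2 among them), maternal transcripts (6 of 28 lower) and glutathione transferases (7 of 34 higher) stand beside 5.82% lower and 5.05% higher over all genes.

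Of 30 tested neuronal receptor, channel and guidance genes 4 were higher and 3 lower, beside 5.05% and 5.82% of all tested genes. Besides Sema2b, para and nAChRalpha5, the acetylcholine receptor subunit gene nAChRalpha3 rose from 26.02, 28.7 and 29.9 CPM to 60.1, 61.7 and 68.2 CPM (1.17 ± 0.12 in log2 units, adjusted p = 0.000112), and nAChRalpha4 fell from 116 ± 6.53 to 77.7 ± 3.67 CPM. The transmembrane semaphorin gene Sema1b (-0.23), named after its value was seen, was lower, a call lost without any 1 library other than double-genotype replicate 3 (adjusted p of up to 0.133). The neuronal RNA-binding protein gene elav, named after its value was seen, was at 0.421 to 0.936 CPM in Drp1SG and at 0.0286 to 0.188 CPM in the double genotype. It had 1 Control library above 0, and its call was lost without replicates 2 or 3 of either genotype (adjusted p of up to 0.0755). Of 14 genes of the EGF receptor pathway and the Kekkon family 2 were higher, beside 5.05% of all tested genes. They were kek1 and kek2 (0.817 ± 0.131 and 2.45 ± 0.218 CPM). The transcription factor gene pnt, a target and effector of the pathway, was lower (-0.34), a call lost without any 1 library other than double-genotype replicate 3 (adjusted p of up to 0.163).

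Heat shock and cytosolic chaperone genes gave 3 higher and 2 lower of 19, beside 5.05% and 5.82% of all tested genes. The same shares apply to the apoptosis, cell cycle and immune lists below. Hsp68 rose from 3.55 ± 0.483 to 6.75 ± 0.440 CPM (log2 fold change 0.93 ± 0.18). Hsp70Bb and Hsp70Ab, near-identical copies whose reads may be shared, were at 0.775 and 1.65 CPM and at 1.15 and 2.57 CPM. Hsp26, which is also loaded into eggs, was at 104 ± 25.7 and 38.8 ± 6.92 CPM. Hsp70Ab was named after its value was seen, and its call was lost without any 1 library (adjusted p of up to 0.105). Those of Hsp70Bb and Hsp26 were lost without 4 of the 6 libraries, all but Drp1SG replicate 1 and double-genotype replicate 3, and all but replicate 1 of either genotype (up to 0.0975 and 0.0876). Of 21 apoptosis genes DNaseII was higher, and Drep1 and the caspase gene Damm (-0.69) were lower. Of 19 genes of the mid-blastula cell cycle Z600 was higher and the checkpoint kinase gene lok (-0.25) lower. Of 10 immune effectors the antibacterial peptide genes AttA (0.0209 and 0.243 CPM) and AttB (0.803 and 1.52 CPM) were higher and the peptidoglycan amidase gene PGRP-SB1 (2.096 and 1.05 CPM) was lower. The call of lok was lost without any 1 library (adjusted p of 0.053 to 0.158), and those of Damm, AttA, AttB and PGRP-SB1 each without 5 of the 6 libraries (up to 0.138, 0.11, 0.117 and 0.131).

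Markers of differentiated cells were followed for traces of older embryos. Of 13 tested muscle markers 12 had a positive log2 fold change, with a median of 1.45. Tm1, Mhc and Mlc1 were called higher, 3 of 13 beside 5.05% of all tested genes. The titin gene sls was lower (-0.63), beside 5.82%. The summed level of the tested markers was 555 to 573 CPM in Drp1SG and 950 to 985 CPM in the double genotype, and no marker was without reads in either group. This sum was 876 to 973 CPM in Control and 579 to 675 CPM in SOD2i. Most of the sum was Tm1, a tropomyosin gene also used outside muscle, which rose from 474, 476 and 493 CPM to 840, 829 and 849 CPM (0.80 ± 0.06 in log2 units, adjusted p = 1.32e-05). Without Tm1 the sum was 90.5, 78.3 and 79.6 CPM in Drp1SG and 111, 155 and 101 CPM in the double genotype, highest in replicate 2. Control then stood at 78.0 to 84.4 CPM and SOD2i at 87.1 to 119 CPM. Myosin heavy chain, Mhc, was at 1.95, 2.33 and 1.49 CPM and at 6.69, 11.9 and 2.29 CPM, and the muscle actin gene Act57B at 7.53, 0.303 and 0.193 CPM and at 4.42, 20.8 and 1.12 CPM. Act57B, named after its value was seen, had a log2 fold change of 1.72 and did not pass the test (adjusted p = 0.42). Its value rested on single libraries, being 5.11 and called without Drp1SG replicate 1 (adjusted p = 0.0355) and 0.07 without double-genotype replicate 2 (adjusted p = 0.985). The myosin light chain gene Mlc1 had a log2 fold change of 3.59, and 1.90 without double-genotype replicate 2 (adjusted p = 0.182), and that of Mhc went from 1.85 to 1.22 (adjusted p = 0.151). The calls of Mhc and Mlc1 were also lost without any 1 Drp1SG library (up to 0.113 and 0.114), that of Mhc without double-genotype replicate 1 (0.0715) and that of sls without any 1 library other than Drp1SG replicate 2 (up to 0.149). More cells of a type and more RNA per cell cannot be told apart in such pools, and the part of older embryos in the other differences was not tested.

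Of 10 haemocyte markers Hml rose from 2.92 ± 0.512 to 6.69 ± 1.42 CPM and Pxn fell from 7.42 ± 0.222 to 3.65 ± 0.244 CPM. Over all tested genes 5.05% were higher and 5.82% lower. The summed haemocyte level was 229 to 263 CPM in Drp1SG and 238 to 246 CPM in the double genotype, ranges that overlap. Of 5 tested genes of the ovary and yolk, 8 of dosage compensation and 2 transgene marker genes none was called by edgeR.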

How the data were processed

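Poly(T) capture and sequencing were applied to 200 ng of RNA per library. Raw counts of reads per gene, as the authors deposited them, are the unit tested here. The tools listed by the submitters' processing notes, without role or order, are featureCounts 1.5.2, HISAT2 2.1.0, Bowtie2 2.2.4, DESeq2 and Trimmomatic. The kit marks strand with dUTP, per the labels, while genome build and strand of counting are not given in the sources used here, so coordinates are left out, and overlapping genes or near-identical copies may share reads. Gene names come from the deposited table and chromosome arms from RefSeq (Release 6 assembly; 17827 of 17868 genes matched).

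In edgeR 4.0.16 (R 4.3.3) filterByExpr kept 9863 genes, scaling was by TMM, and the quasi-likelihood model had a mean for each genotype across all 12 libraries. Calls required an adjusted p under 0.05 (Benjamini-Hochberg, over all tested genes), and called genes only are said to rise or fall. CPM use TMM-scaled library sizes, log2 CPM a prior count of 2. A count of 3 equals 0.0314 to 0.0433 CPM in these 6 libraries and covers counting error only, since no molecular identifiers separate reads from molecules. For list and stage means the test was an exact permutation of libraries (two-sided). The common biological coefficient of variation was 0.1755. The fit was tested on simulated data.

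The comparison and the 35 gene lists were chosen with earlier results of these data known. Named genes were Sod2, Drp1, up to 12 genes per direction (called, at least 2-fold, mean of at least 5 CPM, libraries not overlapping, no number-only symbols), up to 4 called members per list and up to 5 genes per sign of the interaction. Alternatives were DESeq2 1.42.0 size factors and its Wald test, upper-quartile scaling, 2 other filters, limma 3.58.1 with voom, only the groups compared, a 1.5-fold threshold, a replicate block, a maternal covariate and leaving out libraries.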

Additional observations from a re-analysis of the deposited data

Results flagged for a closer look

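The effect of adding SOD2i differed between the Drp1SG and Control backgrounds for 1631 genes, by the test of the difference itself (edgeR, adjusted p under 0.05). Of 122 genes followed by name 74 were among them, 29 with a positive and 45 with a negative difference, beside 16.5% of all tested genes. Most of the 122 were followed because they were called within Drp1SG, which enters this difference, or in the difference itself. A high share among them was therefore set by the choice. A positive value means a larger log2 fold change within Drp1SG than against Control.

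Positive differences, in log2 units, were led by genes that rose within Drp1SG and fell or rose less against Control. The difference was 6.40 for SP2353, 6.27 for Mlc1, 4.05 for para, 4.00 for AttA, 3.40 for Kul, 3.33 for kek1, 3.17 for kek2 and 2.67 for Mhc. It was 2.33 for nAChRalpha5, 2.27 for Rpt3R, 2.25 for Sema2b, 2.09 for miple1, 2.07 for Hsp70Ab, 1.81 for lncRNA:bxd, 1.62 for Hsp68 and 1.51 for Tm1. Smaller positive differences were 1.48 for Hsp70Bb, 1.47 for Hen1, 1.40 for nAChRalpha3, 1.17 for AttB, 1.16 for GstD5, 1.02 for GstS1, 0.96 for cv-2 and 0.85 for GstE11. The remaining positive differences were 0.78 for Sod2, 0.66 for Prx6005 and 0.33 for mRpL16.

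Negative differences were led by genes that rose against Control more than within Drp1SG, or fell within Drp1SG. The difference was -8.11 for elav, -7.11 for Gadd45, -5.58 for Arc1, -5.49 for Drep1, -4.53 for tbc, -3.93 for Ugt36E1, -3.61 for Fas3 and -3.50 for Trxr-2, in log2 units. It was -3.19 for Sod3, -2.96 for betaTub60D, -2.73 for Mis12, -2.67 for exu, -2.46 for dhd, -2.42 for vari, -1.76 for GstT4 and -1.75 for Tpi in the next group. Intermediate values were -1.71 for fs(1)K10, -1.52 for pb, -1.52 for Hsp26, -1.34 for png, -1.30 for Shmt, -1.28 for GstE8, -1.02 for baz and -0.93 for spn-E. Smaller negative differences were -0.90 for NetA, -0.83 for Mes2, -0.71 for Pde8, -0.69 for Hsp83, -0.66 for mthl1, -0.63 for nAChRalpha4, -0.62 for GstD9 and -0.62 for Pgk. The next were -0.58 for mRpL54, -0.55 for Miga, -0.54 for AGO3, -0.48 for crc, -0.47 for ATPsyngamma, -0.43 for lok, -0.39 for Sod1, -0.39 for Sema1b and -0.36 for ssh.

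A few of these differences rest on a group with hardly any reads, and their fitted values are no measure of size. Gadd45 had 3 reads in Control over the 3 libraries, elav 6 in Control and AttA 6 in Drp1SG, each in 1 library alone, and Mlc1 had 2 in SOD2i.

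In 6 further genes a group had no read, so that the fitted difference is no measure of size. GstE10 stood at 0 CPM in Control, 0.818 CPM in SOD2i, 0.505 CPM in Drp1SG and 2.82 CPM in the double genotype. CG7309, lncRNA:CR43807 and CG14070 had no read in Control or the double genotype and stood at 1.70, 1.75 and 0.803 CPM in SOD2i and 1.47, 0.947 and 0.830 CPM in Drp1SG. Ir92a had no read in SOD2i or Drp1SG and stood at 1.47 CPM in Control and 1.78 CPM in the double genotype. CG43187 had no read in Drp1SG and stood at 0.866, 1.65 and 1.00 CPM in Control, SOD2i and the double genotype.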

How the results depend on the processing

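The directions of the changes in Sod2 and Drp1 and of the maternal and stage means held under every alternative run, and no called gene among the 122 followed reversed. The number of genes called in the double genotype against Drp1SG was 1848 (804 higher, 1044 lower) when only the 6 compared libraries were fitted, 212 (114 higher, 98 lower) against a 1.5-fold threshold and 2398 (1234 higher, 1164 lower) with the maternal mean as covariate. It was 571 to 703 when 1 library was left out, and 355 without Drp1SG replicate 1 and double-genotype replicate 2 together, an alternative chosen after seeing the data. Genes called in both backgrounds numbered 117 (55 in the same and 62 in opposite directions) at 1.5-fold, 947 (427 and 520) with the covariate and 228 (101 and 127) without both libraries. Leaving out 1 library gave 321 to 521, 145 to 265 and 175 to 280. The interaction was called for 651 genes at 1.5-fold and 2598 with the covariate. Drp1, at -0.9443, was not called at 1.5-fold (adjusted p = 0.095). The cause of these shifts was not tested, beyond the higher threshold and the fewer libraries that the settings themselves impose. DESeq2's Wald test called 1442 genes, voom 1196 and upper-quartile scaling 932, and 2492 had an unadjusted p under 0.05. Deviations from the group means correlated at -0.167, -0.0615 and 0.0258 between same-numbered libraries, and at -0.146 to 0.17 between differently numbered ones. With 3 libraries a group, these values cannot settle whether the numbers pair the libraries. With a replicate block 882 genes were called, 418 in both backgrounds (186 same, 232 opposite) and 1423 in the interaction, with Sod2 at -4.033 and Drp1 at -0.934. With 3 libraries a group, many calls lie near the limit, and 35 to 47 of 122 followed genes lost their call without 1 library. The 122 include a few genes not called in the main fit. Lost calls were found among abundant transcripts, such as RpL28 and crc, as well as low ones.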
